A study of Sus scrofa with 64 samples.

Results

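Skeletal muscle was represented by the 8 arrays of the diaphragm and of the Biceps femoris, of 64 arrays in all, and was set against the 56 arrays of the other 14 tissues. These were both fats (back and abdominal), blood, liver, stomach, ileum, the thyroid and the pineal gland, the cortex and the medulla of the adrenal, hypothalamus, olfactory bulb, and the front and rear lobes of the hypophysis (adenohypophysis and neurohypophysis). All 16 tissues came from the same 4 healthy growing pigs, so that each tissue had 1 array per animal. The animals were a Large White male of 38.8 kg, a Large White female of 36.2 kg, an Iberian female of 32.8 kg and an Iberian male of 25.4 kg, the Large White pigs 87 and the Iberian pigs 89 days old. The Large White is a lean, fast growing breed and the Iberian a fat, slow growing breed. The diaphragm, the muscle of breathing, was sampled at its crura, and the Biceps femoris, a large muscle of the hind limb, at its lateral side. With 4 animals, 2 of each breed and sex, the p-values below measure the spread between these animals within a tissue.

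Skeletal muscle fibres are long cells filled with sarcomeres, in which thick filaments of myosin slide along thin filaments of actin anchored at the Z-disc. Calcium released from the sarcoplasmic reticulum binds troponin on the thin filament and starts contraction. ATP is restored at once from phosphocreatine, then from glycogen and glucose by glycolysis, and over longer times by mitochondrial oxidation of pyruvate and fatty acids. Many of these proteins exist as a muscle isoform and as another isoform used by most other cells.

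Every value below is a deposited log2 signal of 1 probe set after RMA, a method that corrects background and puts all arrays on a common distribution, and is called a level. Levels of different probes cannot be compared with each other. A difference is the mean of both muscles minus the mean of the 14 other tissues, in log2 units, so that a difference of 1 is a fold of 2, and RMA tends to shrink folds at the low and the high end of its scale. A probe was called higher or lower in muscle when the Benjamini-Hochberg adjusted p of limma over all 23935 pig probes was under 0.05. In pieces of whole tissue, fewer cells of a type and less RNA per cell cannot be told apart.

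The label was borne out by its markers. CKM, the muscle creatine kinase, had levels of 13.58, 13.52, 13.52 and 13.47 in the diaphragm of the Large White male, the Large White female, the Iberian female and the Iberian male, an order kept in every list of array values below. In Biceps femoris CKM was at 13.59, 13.56, 13.54 and 13.50, and in the 56 other arrays its lowest, median and highest levels were 3.11, 3.89 and 8.69. The highest of these was the stomach of the Large White female, still 4.78 below the lowest muscle array. TTN, which codes for titin, the spring that holds the thick filament in place, and MYOT, the Z-disc protein myotilin, were separated by 5.99 and 5.80 log2 units. Over CKM, TTN and MYOT together the mean level per array was 12.26 to 12.85 in muscle and 2.96 to 5.22 elsewhere.

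The Biceps femoris array of the Iberian female stood apart from its group. Its mean distance (1 minus the squared correlation over probes) to the other 3 Biceps femoris arrays was 0.189. Those 3 had mean distances of 0.084 to 0.099, each of which includes the distance to this array. Among the diaphragm arrays the mean distances were 0.0353 to 0.038. Results that rest on the Iberian female Biceps femoris array are therefore also given without it.

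Of the 6592 genes with a symbol, each represented by its brightest probe, 2375 were higher in muscle than the mean of the other tissues (36.0% of those tested) and 2658 were lower (40.3%). A difference of at least 1 log2 unit was found upwards in 642 genes (9.74%) and downwards in 784 (11.9%). The raised side reached much further than the lowered side. Differences of over 4 log2 units were found in 74 genes upwards and in 4 downwards, and of over 3 in 119 and 18. The median difference over all named genes was -0.04.

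Raised and lowered genes also differed in how far muscle stood outside all other tissues. A gene was higher than each of the 14 tissues, by the largest of 14 one-sided p-values, in 370 cases (5.61%) and lower than each in 117 (1.77%). All 8 muscle values lay above all 56 others for 241 genes (3.66%) and below them for 46 (0.698%). The gap between the muscle arrays and the nearest other array reached 7.65 log2 units above and only 0.73 below. Gaps above 2 units were found for 53 genes on the raised side, whereas on the lowered side 3 genes exceeded 0.5. At the edge of this definition FUNDC2 was just inside, with a gap of 0.0091, and YIF1B just outside by 0.0018 on the raised side, and VPS41 (0.0005) and CYBA (0.0007) were the corresponding pair on the lowered side.

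Among the 642 genes raised by at least 1 unit, the muscle mean exceeded every other tissue mean in 441. Among the 784 lowered ones, muscle had the lowest mean of all tissues in 332. Among the other tissues the lowest mean of these 784 genes was held by blood in 259 and by liver in 122. The fewest genes differing by at least 1 unit were found against back fat (1520) and abdominal fat (1562), and the most against ileum (2200) and blood (2574).

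How the arrays are scaled changed the balance of the calls. Over the 9815 named probes, 3727 were higher (38.0%) and 3571 lower (36.4%), so that 51.1% of the calls were upwards. A difference of at least 1 unit was found in 869 probes upwards (8.85%) and 968 downwards (9.86%), 505 were higher (5.15%) and 139 lower (1.42%) than each tissue, and 310 lay above (3.16%) and 54 below (0.55%) all other arrays. The upward share was 59.9% when each array was centred on its 75th percentile, which moved the median difference of the named probes from 0.02 to 0.13. It was 71.3% when each array was centred on the mean of the cytosolic ribosomal protein genes, which moved the median to 0.31. Among the 121 genes described below, the differences of LDHB, MYH10 and PFKL, all called neither, changed sign under 1 or both of these scalings.

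The contractile genes carried the largest differences. All 9 genes of the thick filament and M-band list, 13 of the 15 thin filament genes and 18 of the 20 Z-disc genes on the array were higher in muscle, where 36.0% of all named genes were. Their median differences were 8.53, 8.12 and 5.74 log2 units. All 9, 12 and 17 of them, respectively, had every muscle array above every other array, against 3.66% of all named genes. The mean level of the 9 thick filament genes was 12.23 to 12.69 in the muscle arrays and 3.62 to 5.18 elsewhere, the highest being the back fat of the Iberian female.

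MYL1, an essential light chain of fast myosin, had the largest difference in these lists. Its levels were 13.29, 13.25, 13.21 and 13.27 in diaphragm and 13.09, 13.40, 13.09 and 13.35 in Biceps femoris. The other tissues ran from 2.59 over a median of 3.01 to 6.17, this last value again in the back fat of the Iberian female. The 2 muscles overlapped with each other and lay far above every other array, with a difference of 10.08 (SE 0.16, adjusted p = 1.4e-46).

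Slow and fast isoforms were both high in both muscles. MYH7, the slow myosin heavy chain, was at 13.74, 13.74, 13.77 and 13.74 in diaphragm and 13.53, 13.35, 13.64 and 13.48 in Biceps femoris, against 3.90, 4.83 and 7.33 (lowest, median, highest) elsewhere. Its difference was 8.53 (SE 0.10, adjusted p = 1.5e-52), and its highest other tissue was the neurohypophysis, with a mean of 6.98. The slow troponin genes TNNC1 (9.29) and TNNT1 (9.30), the regulatory light chain MYL2 (9.15) and myosin binding protein MYBPC1 (8.88) were separated by 6.94 to 7.65 log2 units from all other arrays. The fast troponin T gene TNNT3 differed by 9.30 and the fast regulatory light chain MYLPF by 9.54, with gaps of 7.54 and 6.98.

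MYH2, a fast myosin heavy chain named here after its values were seen, differed strongly between the muscles. Its levels were 8.04, 10.87, 8.52 and 10.92 in diaphragm and 13.21, 13.43, 12.67 and 13.28 in Biceps femoris. Every muscle array was above the other tissues, whose highest level was 5.26, but the muscles did not overlap with each other. The difference from the other tissues was 8.41 and that between the muscles -3.56 (diaphragm minus Biceps femoris, adjusted p = 2.4e-10).

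TNNC2, the fast troponin C, ranged from 13.19 to 13.67 in muscle and had a median of 3.64 elsewhere. The pineal gland stood out, with a mean of 8.90 (SD 3.86, n = 4) and 12.70 in the Large White female, so that the gap was 0.49 although the difference was 9.31 (SE 0.37).

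The Z-disc genes included ACTN2, the muscle alpha-actinin, with a difference of 6.45 and a gap of 5.07, and MYOZ1, a calcineurin binding protein of the Z-disc, with 8.38 and 6.58. CMYA5, or myospryn, was at 11.66, 11.20, 11.95 and 11.80 in diaphragm and 12.06, 11.91, 10.51 and 12.15 in Biceps femoris, against a highest level of 4.84 elsewhere. Its lowest muscle value was that of the Iberian female Biceps femoris array, which did not bring it near the other tissues.

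**Figure D1:**
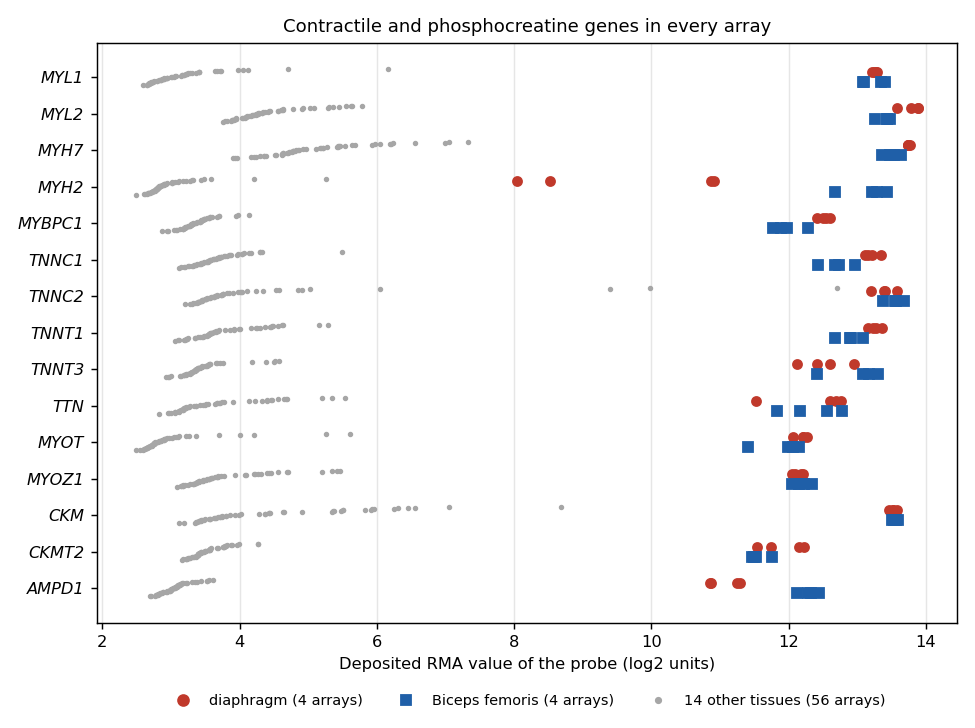
Deposited RMA level (log2 units) of 15 contractile and phosphocreatine genes, 1 row per gene and 1 point per array: diaphragm (red circles, 4 arrays), Biceps femoris (blue squares, 4 arrays) and the 14 other tissues (grey, 56 arrays). Muscle arrays lie above all grey points in every row, MYH2 is split between the muscles (8.04 to 10.92 in diaphragm, 12.67 to 13.43 in Biceps femoris), and TNNC2 has grey points up to 12.70.

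The 4 members called lower in these lists were TPM1, TPM3, PDLIM5 and PDLIM7 (-0.45), and each of the former 3 had another probe that was higher. PDLIM5, a PDZ and LIM protein of the Z-disc that is also expressed outside muscle in other forms, had 4 probes. Its probe of rank 3 in brightness was at 11.19, 11.17, 11.38 and 11.57 in diaphragm and 11.06, 11.14, 9.78 and 11.07 in Biceps femoris, and at most 7.86 elsewhere. Its probe of rank 2 was at 4.68, 4.88, 4.91 and 5.12 and at 4.48, 4.37, 5.14 and 5.36 in the same arrays, and at least 5.57 elsewhere. The groups did not overlap at either probe, and they were ordered oppositely, with differences of 5.74 (SE 0.12) and -2.66 (SE 0.09).

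The tropomyosins TPM1 and TPM3, rods that lie along the actin filament and are made in muscle and non-muscle forms, showed the same pattern. The brightest TPM1 probe differed by -0.48 (SE 0.12, adjusted p = 6.4e-04) with overlapping groups, and the second by 5.35 (SE 0.16) with a gap of 2.49. The 2 brighter TPM3 probes differed by -1.34 and -1.17 and the third by 2.33 (SE 0.10, adjusted p = 3.9e-27). TPM2, whose 4 probes all moved the same way, differed by 5.45 at the brightest probe.

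Another 2 genes were chosen for this after their values were seen. ATP2A2, the calcium pump of slow fibres, heart and non-muscle cells, differed by 2.90 at its brightest probe and by -1.28 and -1.56 at the next. DES, the muscle intermediate filament desmin, was higher by 5.48 at 1 probe and lower by the mean at the other (-1.28). At this other probe muscle was at 2.98 to 3.37, around the median of 3.23 elsewhere, and hypothalamus had a mean of 9.56. In all, 261 of the 2217 named genes with several probes had probes called in opposite directions, and 7 had probes that differed from the other tissues by at least 1 log2 unit in both directions. The probe targets cannot be placed on exons here, so that which transcript each probe reads was not tested.

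**Figure D2:**
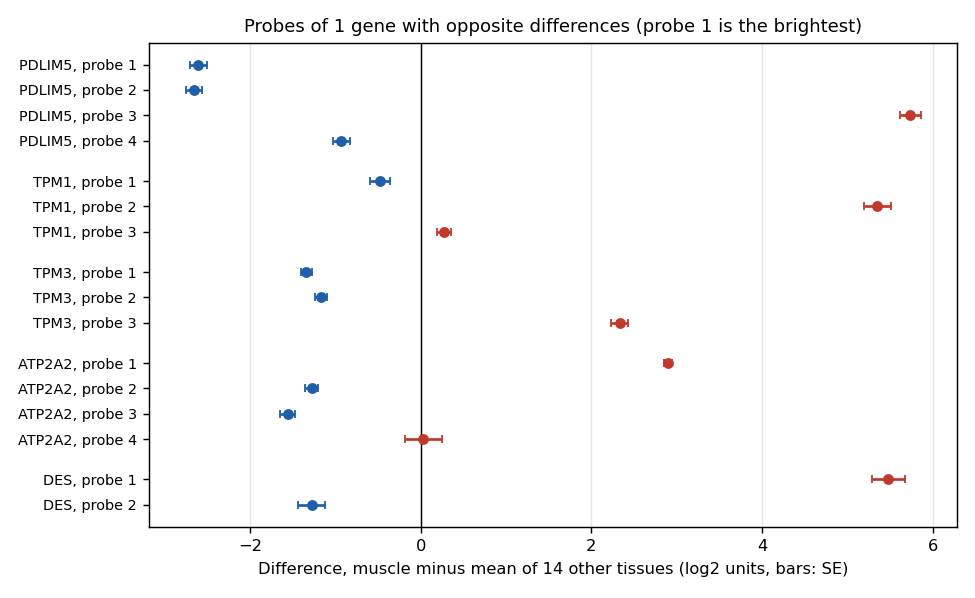
Difference of muscle minus the mean of the 14 other tissues (log2 units, bars: SE of the limma fit) for every probe of 5 genes, ordered by brightness within a gene. Probes of PDLIM5 lie at 5.74 and at -2.61 and -2.66, those of TPM1 at 5.35 and -0.48, and those of DES at 5.48 and -1.28.

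The genes that couple excitation to contraction were higher in all 10 cases on the array, with a median of 3.41. For 7 of them all muscle arrays lay above the other tissues. Over all named genes these shares were 36.0% and 3.66%. SLN, or sarcolipin, a small inhibitor of the calcium pump, was at 12.84, 12.53, 12.40 and 12.40 in diaphragm and 12.72, 13.11, 12.58 and 12.72 in Biceps femoris, against 3.86, 4.44 and 6.64 (lowest, median, highest) elsewhere. The muscles overlapped with each other but not with the other tissues, and the difference was 8.11 (SE 0.14, adjusted p = 1.2e-45). RYR1, the calcium release channel, differed by 7.54 with a gap of 3.54, and PLN, or phospholamban, another inhibitor of the calcium pump, by 4.91 with a gap of 1.43.

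ATP2A1, the calcium pump of fast fibres, was at 8.99, 7.32, 7.79 and 7.66 in diaphragm and 9.79, 9.66, 9.81 and 9.24 in Biceps femoris, and at most 5.35 elsewhere. The muscles did not overlap, with a difference between them of -1.68 (adjusted p = 8.1e-10). The difference from the other tissues was 4.85 at this probe, and 8.52 (SE 0.09) with a gap of 5.96 at another ATP2A1 probe. The brightest ATP2A2 probe ran the other way, higher in diaphragm by 0.53 (adjusted p = 8.7e-05).

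All 6 sarcolemma genes were higher as well (median 2.78), where 36.0% of all named genes were. POPDC3, a membrane protein of striated muscle, differed by 5.70 with a gap of 3.69. SGCD, the delta-sarcoglycan of the dystrophin complex, was at 7.93 to 8.25 in diaphragm and 8.84 to 9.46 in Biceps femoris, whereas back fat reached 7.37, so that its gap was 0.56 and its nearest tissue was abdominal fat, with a mean of 7.16. CHRNA1, the acetylcholine receptor subunit of the motor endplate and the only gene of its list on the array, was higher by 2.02 but was not the highest in muscle. It was at 6.46 to 7.46 in muscle and had a mean of 7.80 in abdominal fat.

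The myogenic transcription factors, which drive muscle genes, were higher in all 12 cases, with a median of 1.25, where 36.0% of all named genes were. MYOD1, which commits cells to the muscle lineage, was at 5.58, 5.91, 5.30 and 5.51 in diaphragm and 6.89, 6.52, 6.78 and 6.53 in Biceps femoris, against 2.96, 3.27 and 4.90 elsewhere. Muscle arrays did not overlap with the other tissues, and the muscles did not overlap with each other (2.79 over the other tissues, -1.11 between the muscles, adjusted p = 2.5e-09). MYF5, of the same family, ranged from 3.73 to 5.62 in muscle and reached 3.23 in blood, a difference of 2.31. TEAD4, a factor of the Hippo pathway, differed by 3.92. SIX4, a homeobox factor of muscle development, differed by 3.80, but overlapped with the adenohypophysis, whose mean was 7.57 and whose highest array was at 8.0. The Iberian female Biceps femoris array had the lowest SIX4 level in muscle (6.20) and the others were at 7.87 to 8.73.

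Genes of energy supply were higher in most cases, where 36.0% of all named genes were. All 5 genes of the phosphocreatine and adenine nucleotide list were higher, 12 of 13 in glycolysis, all 9 in glycogen metabolism, 23 of 25 in the citrate cycle, 54 of 57 in oxidative phosphorylation and 24 of 27 in fatty acid oxidation. Their medians were 8.20, 2.46, 3.35, 1.45, 1.23 and 1.12. The medians of the mitochondrial lists were thus smaller than those of the first 3.

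AMPD1, the AMP deaminase of muscle, was at 11.29, 10.86, 11.24 and 10.85 in diaphragm and 12.12, 12.44, 12.33 and 12.28 in Biceps femoris, against 2.70, 3.04 and 3.61 elsewhere. It was 8.62 higher than in the other tissues (SE 0.07, adjusted p = 3.2e-61) and differed between the muscles without overlap (-1.23, adjusted p = 3.4e-10). CKMT2, the mitochondrial creatine kinase of muscle, differed by 8.20 with a gap of 7.19.

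In glycolysis and glycogen use the muscle isoforms were far above the other tissues. ENO3, the muscle enolase, differed by 7.44, although the thyroid gland had a mean of 9.40, and PGAM2, the muscle phosphoglycerate mutase, by 7.36 with a gap of 5.08. PYGM, the muscle glycogen phosphorylase, differed by 7.20, FBP2, the muscle fructose bisphosphatase, by 5.10, and PPP1R1A, a phosphatase inhibitor, by 4.72. PFKM, the muscle phosphofructokinase, was at 11.08 to 11.22 in diaphragm and 12.04 to 12.44 in Biceps femoris, and reached 10.87 in the pineal gland, so that its gap was 0.22 with a difference of 4.14. Higher levels in Biceps femoris than in diaphragm were found for 7 of the 13 glycolysis and 4 of the 9 glycogen genes, where 13.3% of all named genes were higher in Biceps femoris, and for 0 of them in diaphragm.

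The mitochondrial lists had the opposite balance. Of the citrate cycle 11 of 25 genes were higher in diaphragm than in Biceps femoris, of oxidative phosphorylation 25 of 57 and of fatty acid oxidation 16 of 27, where 14% of all named genes were higher in diaphragm. Without the Iberian female Biceps femoris array these counts were 9, 25 and 17, where 9.03% of all named genes were higher in diaphragm. IDH2, the mitochondrial isocitrate dehydrogenase, was at 12.03, 12.27, 11.95 and 11.69 in diaphragm and 11.29, 11.09, 11.90 and 11.40 in Biceps femoris. The muscles overlapped in a single array, that of the Iberian female, and the difference from the other tissues was 3.16.

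SLC25A12, a mitochondrial aspartate-glutamate carrier, differed by 2.44 from the other tissues with a gap of 0.74, COX7A1, a subunit of cytochrome oxidase, by 2.79 with a gap of 1.13, and ATP5G1, of the ATP synthase, by 2.31 with a gap of 0.51. CPT1B, the muscle form of the enzyme that admits fatty acids to mitochondria, was at 9.57 to 10.02 in diaphragm, 8.67 to 9.37 in Biceps femoris and at most 6.41 elsewhere, a difference of 4.09. FABP3, the fatty acid carrier of muscle and heart, was higher by 4.38 but overlapped with fat, where back fat had a mean of 12.02 against 11.38 to 12.69 in muscle. PPARGC1A, a coactivator of mitochondrial genes, was higher by 2.45 and overlapped with olfactory bulb and liver, whose highest array was at 8.69.

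Chaperones and turnover genes of muscle followed. Of the 11 chaperone genes 9 were higher and 1 was lower, with a median of 3.41. UNC45B, which folds myosin, differed by 4.85 with a gap of 3.60, and HSPB6, a small heat shock protein, by 3.98 with a gap of 1.67. Of the 12 growth and turnover genes 11 were higher (median 1.5). Beside both lists, 36.0% of all named genes were higher and 40.3% lower. ASB11, of a ubiquitin ligase family, differed by 6.21 and CAPN3, the muscle calpain, by 6.03, without overlap. FBXO32, the atrophy ubiquitin ligase atrogin-1, was higher by 2.72 with overlapping groups.

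MSTN, or myostatin, which limits muscle growth, was at 6.18, 4.20, 4.63 and 4.45 in diaphragm and 6.34, 6.38, 3.56 and 6.15 in Biceps femoris. The other tissues ran from 2.65 to 3.93, so that only the Iberian female Biceps femoris array fell among them. The difference was 2.20 (SE 0.16), and 2.53 without that array.

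The proteasome, which degrades proteins in all cells, was raised by a small and shared amount. Of its 33 genes 27 were higher and 3 lower, with a median of 0.42. Over all named genes 36.0% were higher and 40.3% lower, with a median of -0.04. PSMD11 and PSMC2, both of the regulatory cap, differed by 1.34 and 1.16, and only PSMD11 of these was without overlap. The 3 lower genes were PSMC6 (-0.41), PSME1 (-0.67) and PSME2 (-0.49), of which the latter 2 form the activator that interferon induces and were highest in ileum.

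**Figure D3:**
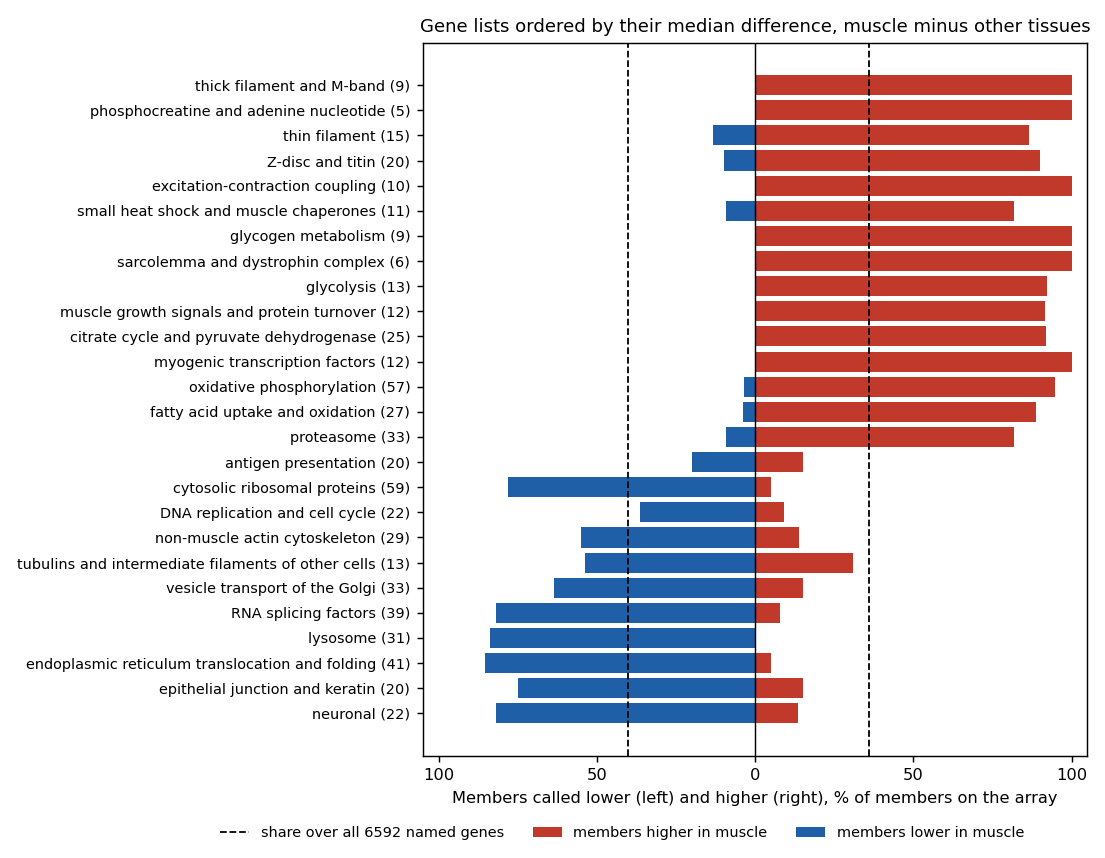
Share of the members of 26 gene lists that were called lower (blue, to the left) or higher (red, to the right) in muscle, in percent of the members on the array (number in brackets), ordered by median difference. Dashed lines mark the shares over all 6592 named genes, 40.3% lower and 36.0% higher. The contractile and energy lists lie at the top with most members higher (all 9 of the thick filament), and the neuronal (18 of 22 lower), epithelial, endoplasmic reticulum, lysosomal and splicing lists at the bottom.

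Isoform pairs set a muscle gene against its counterpart of other tissues. Of 48 pairs listed, 25 had both members on the array, made up of 22 muscle isoforms and 25 others. The muscle isoform was higher in all 25, by amounts from 0.26 (SLC2A4) to 10.08 (MYL1). The counterpart was lower in 17 of them, higher in 4 and neither in 4. Here 36.0% of all named genes were higher and 40.3% lower.

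The adenine nucleotide carriers exchange ATP and ADP across the inner mitochondrial membrane. SLC25A4, the form of muscle and heart, was at 12.68, 12.59, 12.30 and 12.28 in diaphragm and 12.15, 12.09, 11.49 and 11.85 in Biceps femoris, above all other arrays, the highest of which was liver at 10.98. SLC25A5, the form of dividing and other cells, was at 7.04, 7.42, 6.57 and 6.87 in diaphragm and 6.52, 6.82, 7.63 and 6.97 in Biceps femoris, below all other arrays, the lowest of which was blood at 8.13. The pair therefore separated muscle from every other array in both directions, with differences of 3.0 (SE 0.14) and -2.77 (SE 0.10, adjusted p = 3.4e-31). SLC25A6, another form, differed by -0.88.

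CKB, the brain creatine kinase, was at 6.14 to 6.71 in diaphragm and 6.20 to 7.39 in Biceps femoris, and up to 12.04 in pineal gland. Its lowest tissue was liver, with a mean of 6.10, so that muscle was among the lowest tissues but not below all (-2.53, SE 0.18, adjusted p = 1.5e-17). CKMT1A, the mitochondrial form of other tissues, differed by -1.14, FBP1, the liver fructose bisphosphatase, by -2.27, PFKP, the platelet phosphofructokinase, by -1.43, and CPT1A, the liver form opposite CPT1B, by -1.42.

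Other counterparts were lower as well. MYL6, the non-muscle myosin light chain, differed by -1.38, TPM4 by -0.71, PYGL, the liver glycogen phosphorylase, by -1.23, ENO1, the enolase of most cells, by -0.53 and COX7A2, the counterpart of COX7A1, by -0.47. The 4 counterparts called neither were PFKL (-0.18), LDHB (-0.01), ADSS (0.10) and MYH10 (-0.10), and the probes of ADSS and MYH10 were near the low end of the scale throughout, with highest levels outside muscle of 3.95 and 4.86. LDHB, the lactate dehydrogenase of oxidative tissues, was at 11.67 to 12.29 in diaphragm and 11.01 to 11.51 in Biceps femoris, so that the muscles lay on either side of the mean of the others. LDHA, its glycolytic counterpart, was higher by 3.39.

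Both members were higher in 4 pairs, among them FABP3 and FABP5 (4.38 and 2.12), CAPN3 and CAPN1 (6.03 and 0.65), and ATP2A1 and ATP2A3 (4.85 and 0.54). In each of these the muscle isoform had the larger difference.

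**Figure D4:**
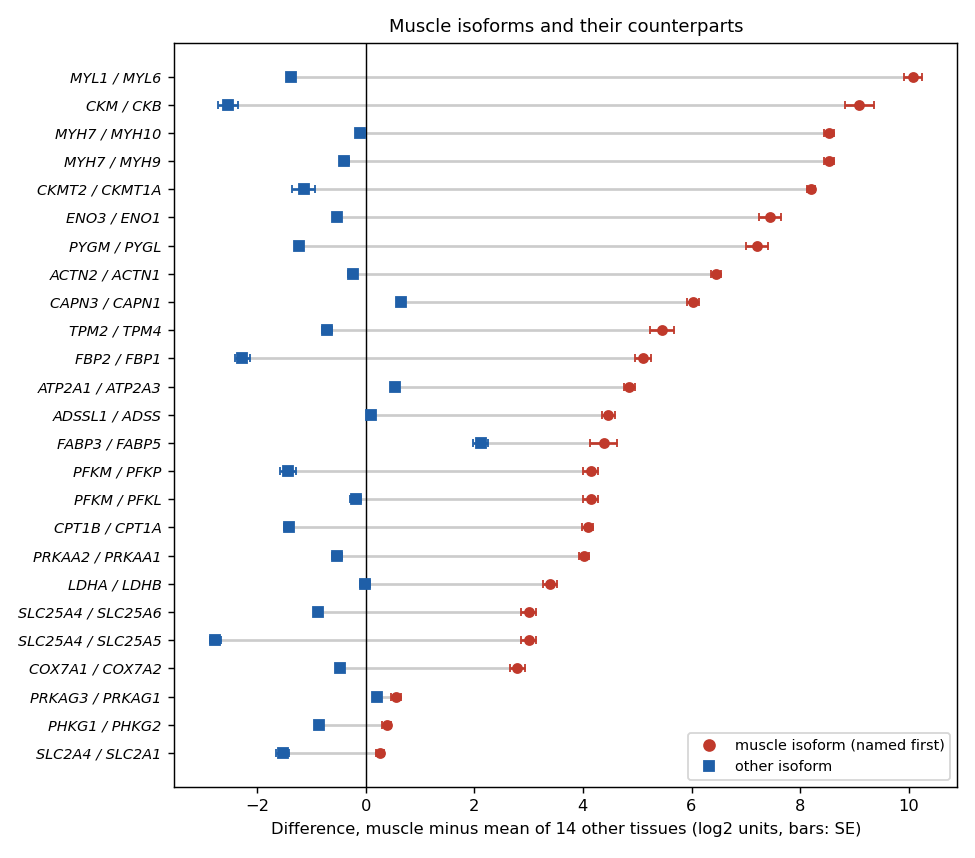
Difference of muscle minus the mean of the 14 other tissues (log2 units, bars: SE of the limma fit) for the muscle isoform (red circles, named first) and its counterpart (blue squares) of 25 pairs. Every red point lies above 0, and 17 of the blue points were called lower, down to -2.77 for SLC25A5.

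The genes for which muscle stood below all other arrays had smaller gaps. COX6A1, the form of a cytochrome oxidase subunit that tissues other than striated muscle use, had the widest gap. It was at 8.95, 9.41, 8.90 and 9.01 in diaphragm and 8.66, 8.35, 9.34 and 8.86 in Biceps femoris, against 10.14, 11.17 and 11.98 (lowest, median, highest) elsewhere. The difference was -2.23 (SE 0.07, adjusted p = 3.2e-32), a fold of 4.70, and the gap 0.73.

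NUDT5, an enzyme that hydrolyses ADP-ribose, was at 6.96, 6.96, 6.52 and 6.76 and at 6.76, 6.24, 6.93 and 6.51, and at least 7.66 elsewhere. GRB2, an adaptor between growth factor receptors and RAS, was at 6.40 to 6.80 in diaphragm and 6.14 to 6.61 in Biceps femoris, and at least 7.28 elsewhere. Neither overlapped, and their differences were -1.62 (SE 0.09) and -1.80 (SE 0.06). For GRB2 only 1 of 2 other probes moved the same way, and the other was called in the opposite direction.

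SERP1, which stabilises proteins during entry into the endoplasmic reticulum, was at 7.31, 7.5, 7.42 and 7.23 in diaphragm and 6.84, 7.23, 4.6 and 6.97 in Biceps femoris, and at least 7.92 elsewhere. The muscles were low in all 8 arrays, and the Iberian female Biceps femoris array lay far below the other 7. The difference was -2.05 (SE 0.12), and -1.75 without that array. SEC23B, a coat protein of vesicles leaving the endoplasmic reticulum, was at 5.46 to 5.82 in diaphragm and 5.59 to 6.28 in Biceps femoris, at least 6.67 elsewhere, and differed by -2.41 (SE 0.07, adjusted p = 8.7e-34).

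A probe set annotated EF1ALPHA, the elongation factor that brings tRNA to the ribosome, was lower in muscle by a small and even amount. Its levels were 12.28, 12.42, 12.34 and 12.22 in diaphragm and 12.40, 12.18, 12.19 and 12.34 in Biceps femoris, against 12.82 to 13.49 elsewhere (-0.97, SE 0.04, adjusted p = 4.1e-29). Of its 6 other probes 4 were also lower and 0 higher. CAP1, which recycles actin, differed by -1.55, DAZAP2, a small protein of unclear role, by -1.14, ARL6IP1, a shaping protein of the endoplasmic reticulum, by -2.18 and FMR1, which binds RNA and represses translation, by -1.58, all without overlap.

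The muscle values of the 46 genes below all other arrays were lowest in the Iberian female Biceps femoris array for 18. Those of the 241 genes above all others were highest there for 85. The same array was also the lowest for 49 of the 241 and the highest for 9 of the 46. Other arrays led in these directions, the Large White female Biceps femoris array (56) and the Large White female diaphragm array (19). The same shares over all named genes were not counted. Of the 117 genes lower than each other tissue, 58 also differed between the muscles, where 27.3% of all named genes did. Of these, 55 were higher in diaphragm, where 14% of all named genes were. Without the Iberian female Biceps femoris array 41 of the 117 differed, 40 of them higher in diaphragm, where 15.8% and 9.03% of all named genes did.

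**Figure D5:**
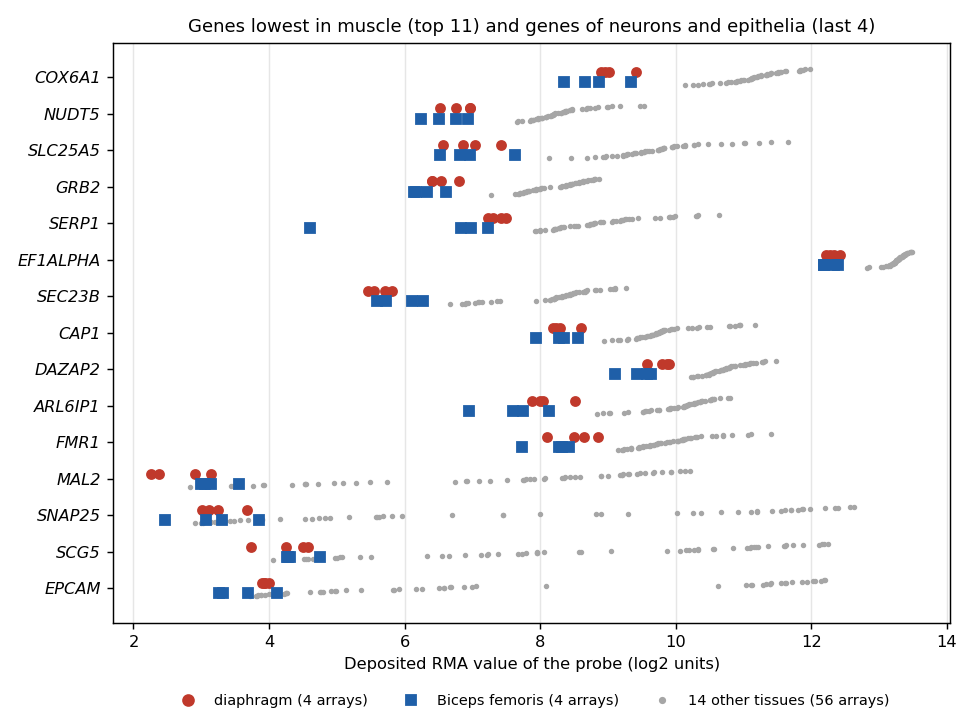
Deposited RMA level (log2 units) of 15 genes lowered in muscle, 1 row per gene and 1 point per array: diaphragm (red circles), Biceps femoris (blue squares) and the 14 other tissues (grey). In the upper 11 rows every muscle point lies left of every grey point, by at most 0.73 log2 units, and in the lower 4 rows the grey points spread from the muscle level up to 12.63.

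Lists of cell functions common to all tissues were lower in muscle by modest amounts. Of the 41 genes of translocation and folding in the endoplasmic reticulum 35 were lower and 2 higher, with a median of -0.85. In vesicle transport of the Golgi 21 of 33 were lower (median -0.61), in the lysosome 26 of 31 (-0.73), among splicing factors 32 of 39 (-0.69), and among cytosolic ribosomal proteins 46 of 59 (-0.25). Here 40.3% of all named genes were lower. Under the 75th percentile centring these counts were 32, 21, 24, 29 and 36. Under the ribosomal protein centring they were 29, 18, 21, 25 and 19, the last with a median turned to 0.04. This last count and median are no test of the ribosomal genes, as centring on them makes their mean the same in every array. Lower calls over all named probes also fell, from 3571 as deposited to 2992 and 2210 under these centrings.

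HYOU1 and HSP90B1, chaperones of the endoplasmic reticulum, differed by -1.92 and -1.82, and SEC63 and SEC62, which help proteins across its membrane, by -1.95 and -1.63. SEC62 was at 8.53, 8.94, 9.05 and 8.66 in diaphragm and 7.82, 8.48, 4.40 and 7.72 in Biceps femoris, with a median of 9.60 elsewhere. SEC63 was at 7.57 to 7.95 in diaphragm and 7.05, 7.45, 3.86 and 7.37 in Biceps femoris. The Iberian female Biceps femoris array was far below the others at both genes and at HSP90B1, and without it the differences were -1.17 for SEC62 and -1.52 for SEC63.

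In the lysosome ATP6V1A, a subunit of the proton pump, differed by -2.12 and NPC1, which exports cholesterol, by -1.97, and neither was below all other arrays. Among splicing factors SRSF9 and SRSF5 differed by -1.51 and -1.47. RPL3, of the large ribosomal subunit, was at 10.32 to 10.89 in diaphragm and from 10.25 upwards in Biceps femoris, where the Iberian female array just reached the range of the other tissues (10.97 to 12.60), a difference of -1.28, whereas the median over its list was -0.25.

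The non-muscle actin cytoskeleton had more genes lower than higher in muscle. Of its 29 genes 16 were lower, 4 higher and 9 neither, with a median of -0.29. In all named genes the shares were 40.3% lower and 36.0% higher. Of the 29 genes 4 were lower than each other tissue, where 1.77% of all named genes were. Under the ribosomal protein centring 12 were lower and 10 higher. EZR, or ezrin, which ties actin to the membrane, differed by -1.97 and was highest in stomach, with a mean of 11.64. The tubulins and intermediate filaments of other cells had 7 of 13 lower and 4 higher (-0.51). DNA replication and cell cycle genes had 8 of 22 lower and 2 higher (-0.26), and antigen presentation genes 4 of 20 lower and 3 higher (-0.10), neither above the shares over all named genes, and the medians of both turned positive under the ribosomal protein centring (0.03 and 0.19).

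The largest negative differences belonged to genes of neurons, endocrine cells and epithelia. Of 22 neuronal genes 18 were lower, by at least 1 log2 unit in each case, and 3 higher, with a median of -2.43. Of 20 epithelial genes 15 were lower and 3 higher (-0.99). Over all named genes 40.3% were lower, 11.9% by at least 1 log2 unit, and 36.0% higher. None of these 42 genes was below every other tissue by the test of all 14, where 1.77% of all named genes were.

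SNAP25, of the synaptic release machinery, was at 3.12, 3.67, 3.02 and 3.25 in diaphragm and 2.46, 3.31, 3.85 and 3.06 in Biceps femoris, against 2.91, 7.07 and 12.63 (lowest, median, highest) elsewhere. Muscle was at the low end of the scale together with abdominal fat, whose mean was 3.21, and far below the olfactory bulb, whose mean was 12.49. The difference was -4.36 (SE 0.19). The granule proteins SCG5, SCG2 and CHGB differed by -4.30, -4.09 and -3.82, and were highest in adenohypophysis. For SCG5 muscle had the lowest mean (4.33, against 4.80 in liver), whereas SCG2 was lower in back fat and CHGB in abdominal fat. STMN2, a growth cone protein, differed by -3.68.

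MAL2, which sorts proteins to the apical membrane of epithelia, differed by -4.43, and EPCAM and CDH1, of epithelial adhesion, by -3.73 and -2.90. EPCAM was at 3.26 to 4.11 in muscle and had means of 12.15 in thyroid gland and 4.02 in abdominal fat. A2M, a protease inhibitor of plasma, differed by -3.61, with muscle at 4.49 to 7.82, and was highest in the adrenal medulla, with a mean of 13.79. The 3 neuronal genes called higher were MAP1B (0.23), SYN1 (0.94) and THY1 (1.02), the last of which fibroblasts carry as well and whose mean was 10.70 in abdominal fat.

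Markers of other cell types were present in the muscle samples to different degrees. The endothelial list was higher in 14 of 15 genes and the fibroblast list in 13 of 16, with medians of 1.05 and 1.03. Of all named genes 36.0% were higher. In either list 0 were higher than each other tissue, where 5.61% of all named genes were. AQP1, a water channel of capillaries and red cells, differed by 2.86 and CAV1, of caveolae, by 2.59. DCN, the matrix protein decorin, differed by 1.87. The mean level of the 15 endothelial markers was 7.34 to 8.27 in muscle, 7.83 to 8.52 in both fats and 5.71 to 5.94 in blood. That of the 16 fibroblast markers was 8.30 to 8.98 in muscle and up to 10.35 in abdominal fat. Smooth muscle markers were higher in 8 of 10 genes (median 0.74), with means of 7.99 to 8.41 in muscle and up to 9.30 in stomach.

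Adipocyte markers were mixed, with 7 of 14 higher and 4 lower and a median of 0.20, where 36.0% and 40.3% of all named genes were. FABP4, the fatty acid carrier of fat cells, was at 10.19, 10.52, 7.39 and 8.93 in diaphragm and 9.76, 10.20, 9.75 and 9.19 in Biceps femoris, with a median of 5.23 and a mean of 13.26 in back fat. ADIPOQ, or adiponectin, shown after its values were seen, was at 6.25, 3.66, 3.87 and 4.86 and at 6.40, 5.72, 5.39 and 4.12, against a mean of 12.01 in back fat and a median of 3.53, and was called neither. The mean level of the 14 adipocyte markers was 6.17 to 7.26 in muscle, highest in the Iberian female Biceps femoris array, and up to 10.42 in back fat.

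Leukocyte markers were lower in 10 of 16 genes and higher in 0, with mean levels of 5.31 to 6.01 in muscle and 8.65 to 8.87 in blood. For this and the next lists, the shares over all named genes were 40.3% lower and 36.0% higher. LAPTM5, of leukocyte lysosomes, differed by -1.17. Of the 4 red cell markers 1 was lower and 0 higher, with means of 5.19 to 6.44 in muscle and 10.43 to 11.04 in blood. The lower one was HBB, whose probe went against its name, as it was lowest in blood (mean 6.69) and highest in olfactory bulb (8.58). Of the Schwann cell list 4 of 6 were lower, of the cardiac list 3 of 5 higher (median 0.95), of the mesothelial list 2 of 3 lower, and the 1 tendon gene on the array was higher by 0.69. The part of these cells in the differences above was not tested.

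Diaphragm and Biceps femoris also differed from each other. Of all named genes 922 were higher in diaphragm (14%) and 877 in Biceps femoris (13.3%), with a median size of 0.28. Among the 370 genes higher than each other tissue the median difference from the others was 1.88 and the median size of the difference between the muscles 0.31. These genes were selected for their difference from the other tissues, so that the sizes cannot be compared beyond this set. Without the Iberian female Biceps femoris array 595 genes were higher in diaphragm and 447 in Biceps femoris.

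Whether the muscle difference depended on breed was tested with an interaction term. It passed for 95 named genes (1.44%), but without the Iberian female Biceps femoris array for 12, of which 7 were in common. Over the named probes the count was 144, and it was 24 without that array, 7 and 9 without the Large White female and the Iberian female, and 973 and 908 without the Large White male and the Iberian male. The dependence on sex passed for 0 named genes by limma, with 614 at an unadjusted p under 0.05.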

How the data were processed

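RNA levels were measured with Affymetrix arrays for pig, a single array for each tissue of each animal. The authors' deposited log2 values were made by RMA, and the submitters' processing notes name GCOS. The sources used here give no versions. Arrays give no counts, so depth is unknown and the 4 animals limit the precision. Of 24123 probe sets 188 controls were left out. Of the other 23935, 10110 had 1 symbol, 157 several and 13668 none in the platform annotation. Without 295 LOC symbols, 9815 named probes of 6592 genes remained, of which 9666 matched RefSeq by Entrez number.

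limma 3.58.1 (R 4.3.3) was fitted to all 64 arrays with tissue, breed and sex, and was tested on simulated data. Tables and plots used Python 3.11.15, numpy 2.4.6, pandas 2.3.3 and matplotlib 3.10.9. Being above or below each of 14 tissues used the largest of 14 one-sided p-values. The brightest probe stood for a gene. Named were the genes with the largest gaps and differences, the leading members of each list in both directions, the isoform pairs and the brightest markers of other cells. PDLIM7, MAP1B, SYN1 and PSMC6, and MYH2, ADIPOQ, DES, ATP2A2, ASNS, TSPAN12, GAPDH and ACTB, were added after their values were seen. The members and lists were chosen with earlier results of these data known.

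Same-numbered arrays came from the same animal. The correlation of deviations between the muscles was 0.253, 0.106, -0.00774 and 0.208 within an animal and -0.231 to 0.0764 between animals. Alternatives were other scalings, other units of replication, and leaving out tissues, arrays or animals. Promoter motifs were not analysed here.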

Additional observations from a re-analysis of the deposited data

Results flagged for a closer look

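In 15 of 242 groups of 4 arrays 1 array stood apart, by the share of the group's range that separates it from the nearest other (above Dixon's 95% critical value), where chance gives about 1 in 20. The Iberian female Biceps femoris array was this array in 9 of them. It was low for CMYA5 (0.85), MSTN (0.92), SERP1 (0.85), HSP90B1 (0.86), SEC63 (0.89), HBB (0.92) and TSPAN12 (0.92), and high for SGCD (0.84) and SCG5 (0.89). In Biceps femoris the Large White male was low for MYLPF (0.84), the Large White female for MYL6 (0.89) and the Iberian male for PSMD11 (0.85). In diaphragm the Large White female was low for TTN (0.87), and the Large White male was low for COX7A2 (0.87) and high for PGAM2 (0.83).

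The muscle difference was not the same in both muscles for 32 of the 121 genes, by the limma test of diaphragm minus Biceps femoris, where 27.3% of all named genes differed. Contractile and calcium genes among them were MYBPC1 (0.53), MYH2 (-3.56), TNNT3 (-0.46), ATP2A1 (-1.68), ATP2A2 (0.53), SGCD (-0.94), UNC45B (-0.42), TPM4 (0.50) and MYOD1 (-1.11). Genes of energy metabolism were AMPD1 (-1.23), PGAM2 (-0.92), PFKM (-1.01), FBP2 (-1.18), FBP1 (1.11), LDHB (0.77), IDH2 (0.57), COX7A1 (0.84), COX7A2 (0.53), CPT1B (0.79) and SLC25A6 (-0.42). The others were CAPN3 (-1.39), CAPN1 (-0.61), SERP1 (0.95), ARL6IP1 (0.50), DAZAP2 (0.35), SEC62 (1.69), SEC63 (1.34), SRSF5 (1.02), THY1 (-1.29), HBB (1.48), ASNS (-3.03) and TSPAN12 (3.15). Without the Iberian female Biceps femoris array 27 of the 32 still passed. TNNT3 (-0.44) and COX7A1 (0.81) missed the threshold with about the same difference. SLC25A6 (-0.25), CAPN1 (-0.37) and TPM4 (0.18) did not pass, and SERP1 (0.36), SEC62 (0.77), SEC63 (0.47) and HBB (0.62) were smaller. Without that array 4 other genes passed, MSTN (-0.74 with it and -1.41 without), COX6A1 (0.46), GRB2 (0.36) and PFKL (0.59).

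The interaction with breed, which cannot be told apart from the individual pigs, passed for COX7A2 (-0.47, Large White minus Iberian), MSTN (1.10) and PFKP (-0.96). Without that array none of these 3 passed (-0.39, 0.62 and -0.85, limma adjusted p of 2.0e-01, 2.5e-01 and 2.6e-01), although the differences of COX7A2 and PFKP stayed close to those with it.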

How the results depend on the processing

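Counts here are of the 9815 named probes. With the animal as replicate block, which pairs the arrays of 1 animal, 3737 were higher, 3593 lower, 869 and 968 by at least 1 unit, and 507 and 146 outside each tissue, and no call among the 121 genes changed. Treating the 16 tissue means as replicates gave 602 higher and 244 lower probes, 474 and 187 by at least 1 unit, and 2 isoform pairs, and 43 of the 121 genes were no longer called, among them SNAP25, MAL2, EPCAM, CKB, PFKM and FABP3. Ribosomal protein centring gave 2210 lower probes, 1399 and 586 by at least 1 unit, and 44 lower than each tissue. The last count, 139 as reported, was 333 without blood, 240 without brain and hypophyses, 88 with diaphragm alone, 221 with Biceps femoris alone, and 74 to 134 leaving out each animal. Probes above the median level gave 2203 higher. Of the 310 probes with every muscle array above the others, 180 had a gap over 0.5, and diaphragm alone gave 482. Of the 54 below, 3 had a gap over 0.5, and the count was 129 without blood, 110 with diaphragm alone, 156 with Biceps femoris alone and 68 to 94 leaving out each animal. Alternatives chosen after seeing the data concerned the muscles and breeds, and the probes outside all other arrays without the Large White male pineal array (312 above, 55 below). Without the Iberian female Biceps femoris array, 24 probes passed the interaction with breed, against 144 with it. Between the muscles 1493 probes differed without it, against 2637 with it. Leaving out each animal gave 7 to 973 for breed and 1151 to 2579 for the muscles. Signs changed for antigen presentation (median 0.01 with the 75th percentile, 0.19 with ribosomal centring, 0.01 with diaphragm alone), ribosomal proteins (0.04) and replication (0.03) with ribosomal centring, LDHB (0.28 with ribosomal centring, 0.37 with diaphragm alone), MYH10 (0.19), ADIPOQ (-0.66 without brain and hypophyses), ASNS (-0.90) and TSPAN12 (1.21) with diaphragm alone, and TPM1 (1.71 as the mean over its probes). For the ribosomal proteins, centring on these same genes fixed their mean, so that their sign under it is no test. The cause of the other changes was not tested. RMA values carry no detection call, so whether a low probe is above background is unknown.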

Other observations

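Being the average of both muscles, the difference hid genes that lay on opposite sides of the other tissues. In 102 of the 6592 named genes diaphragm and Biceps femoris were called in opposite directions. This count was not repeated without the Iberian female Biceps femoris array. ASNS, the asparagine synthetase, named after its values were seen, was at 6.33, 6.71, 6.79 and 7.23 in diaphragm and 10.04, 9.92, 9.81 and 9.40 in Biceps femoris, against a median of 7.84 elsewhere. It was 0.90 lower than the other tissues in diaphragm (a difference of -0.90) and 2.13 higher in Biceps femoris. TSPAN12, a tetraspanin chosen in the same way, was at 8.11 to 9.27 in diaphragm and 4.32 to 6.06 in Biceps femoris, with differences of 1.21 and -1.94. Without the Iberian female Biceps femoris array the difference between the muscles was 2.73 for TSPAN12, against 3.15 with it. DECR1 and SUCLG2, mitochondrial enzymes of fatty acid oxidation and of the citrate cycle, differed by 1.31 and 1.03 in diaphragm and by -0.80 and -0.82 in Biceps femoris.

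GAPDH and ACTB, often used as reference genes and named after their values were seen, differed from the other tissues at their brightest probe. GAPDH, of glycolysis, was at 13.74 to 14.27 in muscle and at most 13.66 elsewhere, a difference of 1.10, and ACTB, the cytoplasmic actin, was at 11.85 to 12.30 in muscle with a median of 12.83 elsewhere, a difference of -0.70. Other GAPDH probes differed by 2.41, 1.81, 0.14 and 2.45, and another ACTB probe by 0.08 (limma adjusted p = 4.6e-01).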
